A study of Mus musculus with 6 samples.

Results

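The 9 genes described here encode colony-stimulating factors, other growth factors and their receptors that macrophages make or carry. They are the ligands Csf1, Lif, Osm, Inhba and Vegfa and the receptor chains Csf1r, Csf2ra, Csf2rb and Csf3r. A gene was included where a probe set of the array carried its symbol and no other, and the probe set with the highest mean over the 6 arrays stood for it. All 9 genes had such a probe set, out of 18194 genes measured. Of those, 13587 genes, with all 9 among them, had a level at or above the median of all probe sets on 1 array or more (the floor), and only these genes were tested.

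The arrays held RNA of macrophages washed from the peritoneal cavity of mice injected with thioglycollate, a sterile irritant that recruits them there. The Akirin2 KO mice had the genotype LysM-Cre+;Akirin2fl/fl, and the controls were labelled wildtype. LysM-Cre is a Cre recombinase driven by the lysozyme M locus, which is active in myeloid cells and not in macrophages alone. Both genotypes were of strain C57BL/6 x 129Sv. Macrophages of each genotype were left unstimulated (0 h) or given lipopolysaccharide (LPS, a component of the outer membrane of Gram-negative bacteria) for 2 or 4 h, at a concentration of 100 ng/ml. The 6 conditions had 1 array each. The labels give no age, no number of mice per sample and do not say whether the wild-type mice carried Cre or a floxed allele. In the text below, a level is the deposited log2 value of a probe set, and a difference of 1 between levels is a 2-fold change. Levels of different probe sets cannot be set against each other.

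Macrophages depend on Csf1, also called M-CSF, which signals through the receptor tyrosine kinase Csf1r. GM-CSF (Csf2) acts through the chain Csf2ra, which binds the ligand, paired with the common beta chain Csf2rb, and G-CSF (Csf3) acts through Csf3r, the receptor best known from neutrophils. Lif and Osm belong to the interleukin-6 family, whose receptors share the chain gp130, Inhba encodes the subunit whose dimer is activin A, and Vegfa is the main growth factor of blood vessels. Akirin2 is a nuclear adaptor known for its part in inflammatory gene expression, and the arrays compare the LPS response of macrophages with and without it.

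As a check of the labels, Akirin2 itself had levels of 5.18, 5.54 and 4.91 in Akirin2 KO at 0, 2 and 4 h, against 7.43, 7.47 and 7.33 in wild-type, and fell by 2.20 on the log2 scale (SE 0.14, limma adjusted p = 0.000328). Array medians lay between 3.18 and 3.23 and correlations between arrays over all probe sets between 0.958 and 0.989. The mean level of the hybridisation spikes bioB and bioC was 11.1 on the Akirin2 KO 0 h array, against 10.4 to 10.7 on the other 5 arrays, so values that rest on that array are also given without it where that matters. The gap between 3' and 5' probe sets of Actb, a measure of RNA and amplification quality, was 4.36 to 4.64 in Akirin2 KO and 4.09 to 4.22 in wild-type. The same gap for Gapdh was 4.34 to 4.52 in Akirin2 KO and 4.33 to 4.42 in wild-type, which overlap. The part of RNA quality in the genotype differences was not tested.

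Of the macrophage markers listed, 10 of 11 had a named probe set and all 10 passed the floor. Their summed level, the log2 of the sum of their linear values, was 12.83 to 13.01 in Akirin2 KO and 13.02 to 13.16 in wild-type. For genotype 2 of the 10 passed the test, C1qa and Fcgr1, both lower in Akirin2 KO. The median genotype effect over the 10 was -0.31, against -0.011 over all genes tested, and only Cd68 had a positive effect (0.014). Of 9 neutrophil markers with a probe set, 4 passed the floor. S100a8, S100a9 and Mmp8 were above it on all arrays, Camp read 2.79 to 3.30 in Akirin2 KO and 3.03 to 3.49 in wild-type, and Mpo, Elane, Ltf, Ngp and Cxcr2 were below it on all arrays. The summed level of the 11 markers of mesothelial cells and fibroblasts was 8.97 to 9.28 in Akirin2 KO and 9.67 to 9.86 in wild-type, without overlap. This sum rests mostly on the collagen genes, the brightest of the list. The dimmer mesothelial markers were mixed. Genotype effects were 0.14 for Upk3b, 0.12 for Lrrn4, -0.135 for Krt8, -0.15 for Krt19, -0.25 for Msln and -0.47 for Wt1. Of all 11, only Col1a2, a collagen chain, passed the test, and it fell by 0.83 (adjusted p = 0.0372), a call made under 6 of 12 settings. The fibroblast markers Col1a1, Col3a1, Dcn and Pdgfra had genotype effects of -0.62, -0.70, -0.63 and -0.65. Their limma adjusted p was 0.0511, 0.145, 0.0537 and 0.0587. The part of these cells in the genotype differences below was not tested. Of the markers of other cell types, Cd28 of T cells rose by 1.19 (adjusted p = 0.0203). Cd3e was above the floor, with 4.10, 4.17 and 3.94 in Akirin2 KO and 3.88, 4.18 and 4.21 in wild-type (genotype effect -0.020, adjusted p = 0.962), and Cd3d, Cd3g and Nkg7 were below it on all arrays. In RNA of a whole cell preparation, fewer cells that express a gene and less RNA per cell cannot be told apart.

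LPS raised 3 of the 9 genes, the ligands Csf1, Lif and Inhba, at both times, and lowered 0 (limma, adjusted p under 0.05 over 13587 genes). Each p-value measures how alike the response was in both genotypes, since there is 1 array per condition. Over all genes tested, 3.96% rose and 2.89% fell at 2 h, and 7.76% rose and 7.61% fell at 4 h. With every array centred on the median of its genes above the floor, 541 genes rose and 254 fell at 2 h, against 538 and 393 on the deposited scale. The median effect of LPS over the 9 genes was 0.21 at 2 h and 0.24 at 4 h, against -0.042 and -0.026 over all genes tested. Between 2 and 4 h, 0 of the 9 genes passed the test in either direction, against 1.56% of all genes higher and 1.11% lower.

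**Figure D1:**
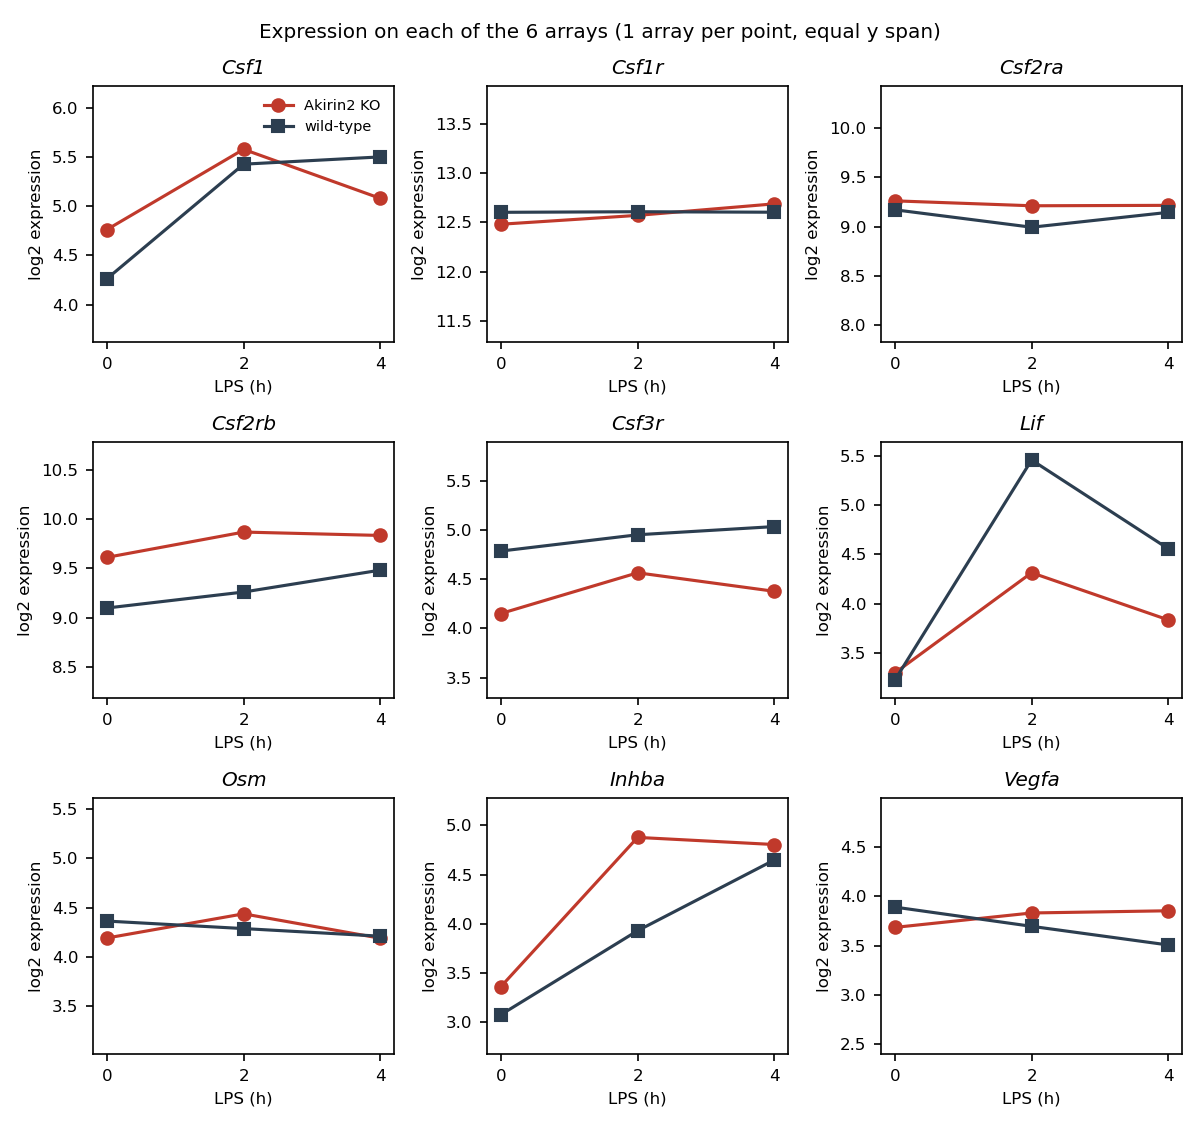
Level (deposited log2 value, y axis) of each of the 9 genes against hours of LPS (x axis) in Akirin2 KO (red circles) and wild-type (dark squares), 1 array per point, with the same span of log2 units in every panel. Csf1, Lif and Inhba lie higher after LPS than before it in both genotypes, while Csf2rb lies higher and Csf3r lower in Akirin2 KO at all 3 times.

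The promoters of the 3 genes that rose are shown because these genes passed the LPS test at both times, though their time courses differed. They come from RefSeq on GRCm38.p6, run from 250 bases before the annotated start to 50 bases after it, and are written 5' to 3' on the gene's own strand. Capitals mark matches to the motifs searched. Csf1 lies on the minus strand at chr3:107760420-107760719, Lif on the plus strand at chr11:4257318-4257617 and Inhba on the plus strand at chr13:16011601-16011900.
Csf1: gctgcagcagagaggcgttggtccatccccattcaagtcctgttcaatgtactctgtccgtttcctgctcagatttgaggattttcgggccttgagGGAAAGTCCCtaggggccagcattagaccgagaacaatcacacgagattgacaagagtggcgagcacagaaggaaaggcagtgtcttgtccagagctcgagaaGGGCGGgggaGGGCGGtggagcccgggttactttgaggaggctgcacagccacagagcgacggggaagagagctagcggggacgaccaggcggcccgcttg
Lif: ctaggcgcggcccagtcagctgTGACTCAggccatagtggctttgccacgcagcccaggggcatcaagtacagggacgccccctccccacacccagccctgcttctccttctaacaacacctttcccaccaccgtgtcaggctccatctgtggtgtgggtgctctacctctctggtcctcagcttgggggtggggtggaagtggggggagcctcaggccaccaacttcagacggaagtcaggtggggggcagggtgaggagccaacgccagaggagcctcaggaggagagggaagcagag
Inhba: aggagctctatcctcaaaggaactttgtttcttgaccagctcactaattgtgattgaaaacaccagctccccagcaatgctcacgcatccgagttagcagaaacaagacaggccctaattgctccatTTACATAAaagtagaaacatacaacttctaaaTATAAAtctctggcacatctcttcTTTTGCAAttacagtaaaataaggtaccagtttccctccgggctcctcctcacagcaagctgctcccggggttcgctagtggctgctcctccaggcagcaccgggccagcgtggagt

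The motifs searched on both strands were the NF-kB consensus, AP-1 (TGANTCA), C/EBP (TTNNGNAA), ETS (GAGGAA), the GC box (GGGCGG), the TATA box (TATAAA) and the core of the hypoxia response element (ACGTG). The Csf1 window held the NF-kB consensus on the opposite strand, 154 bases before the start, and GC boxes 51 and 41 bases before it. Of 32851 promoters in the table, 4.51% held the NF-kB consensus and 35.7% a GC box. The Lif window held 1 match, to AP-1, 228 bases before the start, a motif found in 7.81% of promoters. The Inhba window held C/EBP matches 123 and 67 bases before the start and a TATA box 91 bases before it, which 40.7% and 13.6% of promoters hold. The table had entries for 6 of the 9 genes (Csf1, Csf2ra, Csf3r, Lif, Inhba and Vegfa), with 7 windows between them, as Vegfa had more than 1 start. Of the genes that did not pass the LPS test, Vegfa held the hypoxia core 211 bases before the start in one window and the NF-kB consensus 118 bases before it in another. Csf2ra held the hypoxia core 225 bases before its start, and 19.6% of promoters hold that core. An ETS match, held by 28.3% of promoters, lay 86 bases before the start of Csf3r. Csf2ra also held ETS matches, a C/EBP match and a GC box. The Vegfa window with the hypoxia core also held a C/EBP match and a GC box. The Vegfa window with the NF-kB consensus also held an ETS match and GC boxes. A match is only a run of letters and shows no binding.

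Csf1, the growth factor that keeps macrophages alive, had levels of 4.76, 5.58 and 5.08 in Akirin2 KO at 0, 2 and 4 h, and of 4.26, 5.43 and 5.50 in wild-type. Every stimulated array was above both unstimulated ones, and the genotypes stood closest at 2 h. Csf1 rose by 0.99 at 2 h (SE 0.22, 95% confidence interval 0.50 to 1.48, adjusted p = 0.0312) and by 0.78 at 4 h (SE 0.22, adjusted p = 0.0447). Within Akirin2 KO the 4 h level lay 0.32 above 0 h, and within wild-type 1.24 above it. The difference between the LPS responses, Akirin2 KO minus wild-type, was -0.63 (SE 0.29, adjusted p = 0.380) and did not pass the test. Without the Akirin2 KO 0 h array the effects were 1.31 at 2 h and 1.09 at 4 h.

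The Csf1 calls depend on the probe set and on the scaling. The other 3 Csf1 probe sets had levels of 2.72 to 3.56, near the array medians, and moved by at most 0.42 over the 6 arrays. With the mean of all 4 probe sets, the LPS effect on Csf1 was 0.25 at 2 h (adjusted p = 0.345) and 0.15 at 4 h (adjusted p = 0.502). After a further quantile normalization, the adjusted p was 0.0608 at 2 h and 0.0828 at 4 h, and with centred arrays 0.0747 and 0.0985. Without the floor, the 4 h effect had an adjusted p of 0.0564.

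Lif, which acts through its receptor and gp130 and is known for its effects on stem cells and inflammation, had levels of 3.30, 4.31 and 3.83 in Akirin2 KO, and of 3.22, 5.46 and 4.56 in wild-type. Both genotypes peaked at 2 h, both started near the array median, and the wild-type array was the higher at 2 and 4 h. Lif rose by 1.63 at 2 h (SE 0.26, 95% confidence interval 1.04 to 2.22, adjusted p = 0.00736) and by 0.94 at 4 h (SE 0.26, adjusted p = 0.0433). The drop of 0.69 between 2 and 4 h, seen in both genotypes, did not pass the test (adjusted p = 0.281) except without the Akirin2 KO 0 h array (adjusted p = 0.0176). The call at 4 h was lost with no floor (adjusted p = 0.0593), with a floor at the 75th percentile (0.0530), with the mean of both probe sets (0.0597) and with centred arrays (0.0907). With that mean the LPS effect on Lif was 0.87 at 2 h and 0.54 at 4 h, and without the Akirin2 KO 0 h array it was 2.13 and 1.44.

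The size of the Lif response differed between the arrays of the genotypes. From 0 h to 2 h the level was 1.02 higher in Akirin2 KO and 2.23 higher in wild-type, and from 0 h to 4 h 0.54 and 1.33 higher. At 2 h Lif was lower by 1.14 on the Akirin2 KO array than on the wild-type array, past 2-fold, and at 4 h by 0.72, while at 0 h the difference was 0.073. The test of the difference in response gave -1.01 (SE 0.27, adjusted p = 0.162) and was not past the threshold. The genotype effect over the 3 times was -0.60 (SE 0.21, adjusted p = 0.222). Without the 0 h arrays it was -0.93 with an adjusted p of 0.00447, from 2 arrays a genotype. The second Lif probe set read 2.74 to 3.10 on all arrays, close to the array medians.

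Inhba, the activin A subunit, had levels of 3.36, 4.88 and 4.80 in Akirin2 KO at 0, 2 and 4 h, and of 3.08, 3.93 and 4.65 in wild-type. The wild-type 0 h array was below the floor, so the gene was measured above it on 5 of 6 arrays. In Akirin2 KO the 2 h and 4 h arrays lay close together, in wild-type the 4 h array lay 0.72 above the 2 h array, and the genotypes were closest at 4 h. Inhba rose by 1.18 at 2 h (SE 0.21, 95% confidence interval 0.71 to 1.65, adjusted p = 0.0113) and by 1.51 at 4 h (SE 0.21, adjusted p = 0.00164). It passed the test at both times under all 9 settings tried, with effects of 0.59 to 1.25 at 2 h and 0.72 to 1.54 at 4 h, the lowest with the mean of both probe sets. Akirin2 KO exceeded wild-type by 0.28 before LPS and by 0.95 and 0.16 after 2 and 4 h. Neither the genotype effect of 0.46 (SE 0.17, adjusted p = 0.236) nor the difference in response of 0.27 (SE 0.32, adjusted p = 0.776) passed the test. The second Inhba probe set stayed at 2.84 to 3.08.

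**Figure D2:**
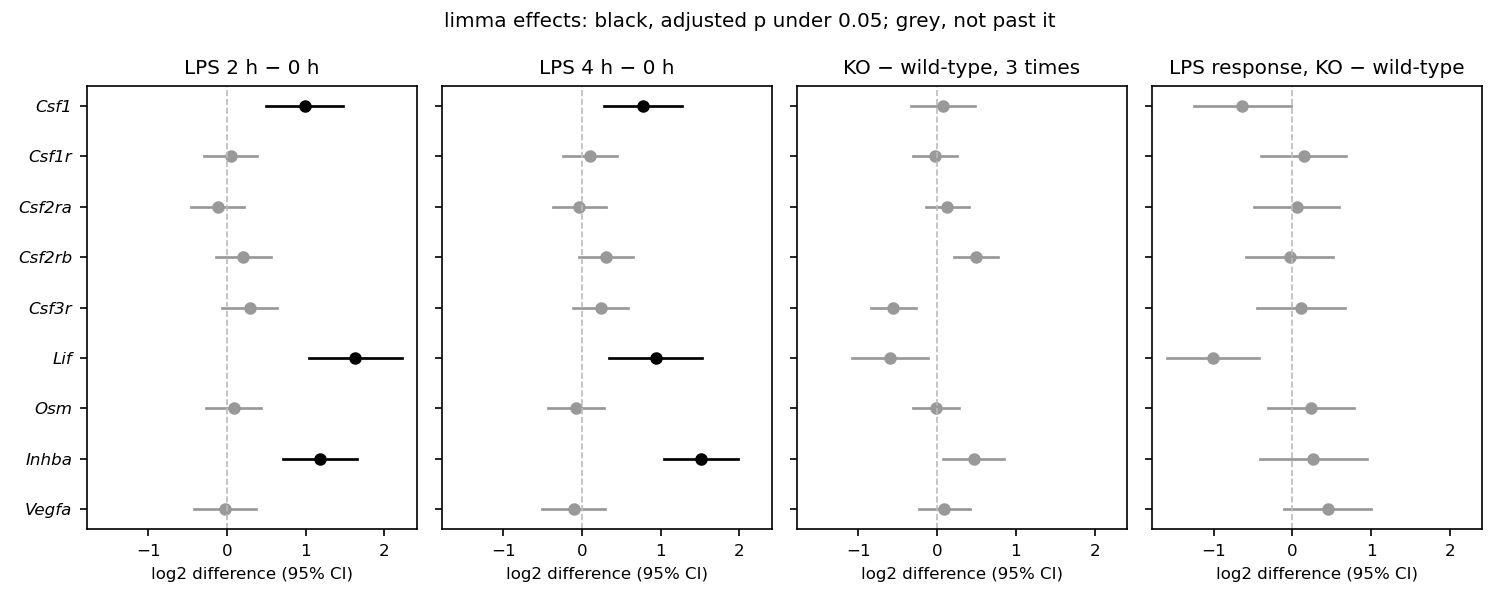
limma effects on the 9 genes (log2 difference on the x axis, with 95% confidence intervals as bars) for LPS at 2 h and 4 h, for Akirin2 KO minus wild-type over the 3 times, and for the LPS response of Akirin2 KO minus that of wild-type. Black points passed an adjusted p of 0.05 and grey ones did not, and only Csf1, Lif and Inhba are black, in the panels for LPS.

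Single arrays give the same 3 genes by size, with no test. At 2 h of LPS, Lif and Inhba were at least 2-fold above 0 h in Akirin2 KO and Lif and Csf1 in wild-type, and at 4 h Inhba was in Akirin2 KO and Csf1, Lif and Inhba in wild-type. The counts were 2 and 1 of 9 genes in Akirin2 KO at 2 and 4 h and 2 and 3 in wild-type. Over all genes, 3.35% and 6.54% moved at least 2-fold in either direction in Akirin2 KO, and 4.45% and 8.47% in wild-type. Between the genotypes, 1 of 9 genes was 2-fold apart at 2 h, Lif, against 0.949% of all genes. Before LPS and at 4 h the count was 0 of 9, against 1.93% and 1.45% of all genes.

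The remaining ligands, Osm and Vegfa, passed none of the tests. Osm, an interleukin-6 family cytokine of myeloid and T cells, had levels of 4.19, 4.44 and 4.19 in Akirin2 KO and of 4.36, 4.29 and 4.21 in wild-type. No neighbouring levels in the order of its 6 values were further apart than its moderated residual SD of 0.16. Moderated means that eBayes draws the residual SD of each gene toward that of all genes, so a gene's own residual SD can differ. The Osm effect of LPS was 0.085 at 2 h (95% confidence interval -0.27 to 0.44) and -0.078 at 4 h (-0.43 to 0.28), with limma adjusted p of 0.821 and 0.793. Osm lies next to Lif on chromosome 11, with 0 annotated genes between them.

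Vegfa had levels of 3.69, 3.83 and 3.85 in Akirin2 KO at 0, 2 and 4 h, and of 3.89, 3.70 and 3.51 in wild-type. Both stimulated arrays of Akirin2 KO were above their 0 h array and both of wild-type below theirs, so the lower genotype at 0 h was the higher at 2 and 4 h. None of these levels reached the 75th percentile of its array (4.29 to 4.40), and the second Vegfa probe set had 2.61 to 2.77 in Akirin2 KO and 2.78 to 3.26 in wild-type. The LPS effect on Vegfa was -0.024 at 2 h (adjusted p = 0.962) and -0.11 at 4 h (adjusted p = 0.742). The difference in response was 0.45 (SE 0.25, 95% confidence interval -0.10 to 0.997, adjusted p = 0.488).

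None of the 4 receptor genes passed any of the tests as fitted on the deposited values, and other settings called Csf2rb as given below. Csf1r, the receptor of Csf1 and a defining gene of macrophages, had levels of 12.48, 12.57 and 12.69 in Akirin2 KO and of 12.60, 12.61 and 12.60 in wild-type. It varied by 0.21 over all arrays, with no gap between neighbouring values above its moderated residual SD of 0.15. Its LPS effect at 4 h was 0.10 (95% confidence interval -0.24 to 0.44, adjusted p = 0.706) and its genotype effect -0.024 (-0.30 to 0.25, adjusted p = 0.949). A dimmer Csf1r probe set had 6.46, 7.14 and 7.42 in Akirin2 KO and 7.19, 7.41 and 7.31 in wild-type, so at 0 h it differed between the genotypes by -0.73 where the chosen probe set differed by -0.12.

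Csf2ra, the ligand-binding chain for GM-CSF, had levels of 9.26, 9.21 and 9.22 in Akirin2 KO and of 9.17, 8.99 and 9.14 in wild-type. The 3 Akirin2 KO arrays were above the 3 wild-type arrays, but by no more than 0.22 at any time. The second Csf2ra probe set had 7.97, 7.80 and 7.95 in Akirin2 KO and 7.84, 7.71 and 7.99 in wild-type, where the genotypes overlapped. By the chosen probe set, the genotype effect on Csf2ra was 0.13 (SE 0.12, adjusted p = 0.671). LPS moved that probe set by -0.11 at 2 h and -0.036 at 4 h (adjusted p of 0.735 and 0.905).

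Csf2rb, the beta chain shared by the receptors of GM-CSF, interleukin-3 and interleukin-5, had levels of 9.61, 9.87 and 9.83 in Akirin2 KO and of 9.10, 9.26 and 9.48 in wild-type. Each Akirin2 KO array was above each wild-type array, with differences at matched times of 0.51, 0.61 and 0.35. The genotype effect was 0.49, or 1.41-fold (SE 0.12, 95% confidence interval 0.21 to 0.77), with an adjusted p of 0.0976, which missed the threshold. With a variance that follows the mean level and a robust prior, its adjusted p was 0.000169. That setting called 883 genes for genotype in place of 265. LPS moved Csf2rb by 0.21 at 2 h (adjusted p = 0.506) and by 0.30 at 4 h (SE 0.15, 95% confidence interval -0.042 to 0.65, adjusted p = 0.236). At 4 h it passed with the mean of both probe sets, with an effect of 0.50 (adjusted p = 0.0337), and with the trend and robust options (adjusted p = 0.0242). The second Csf2rb probe set had 6.10, 6.83 and 6.87 in Akirin2 KO and 5.67, 6.10 and 6.29 in wild-type, with differences of 0.43, 0.73 and 0.58 at the 3 times.

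Mice carry a near copy of this gene, Csf2rb2, which encodes the beta chain specific to interleukin-3. It lies beside Csf2rb on chromosome 15, with 1 annotated gene, Mir7676-1, between them. Csf2rb2 had levels of 9.96, 10.12 and 9.95 in Akirin2 KO and of 9.17, 9.50 and 9.48 in wild-type, without overlap. Its genotype effect was 0.62 (SE 0.13, 95% confidence interval 0.34 to 0.91), with an adjusted p of 0.0506, and 4 of 12 settings placed it under 0.05. A probe set annotated to both genes had 3.59, 3.84 and 3.82 in Akirin2 KO and 3.49, 3.09 and 3.54 in wild-type. As the copies are alike in sequence, how far each probe set reads the other copy was not tested.

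**Figure D3:**
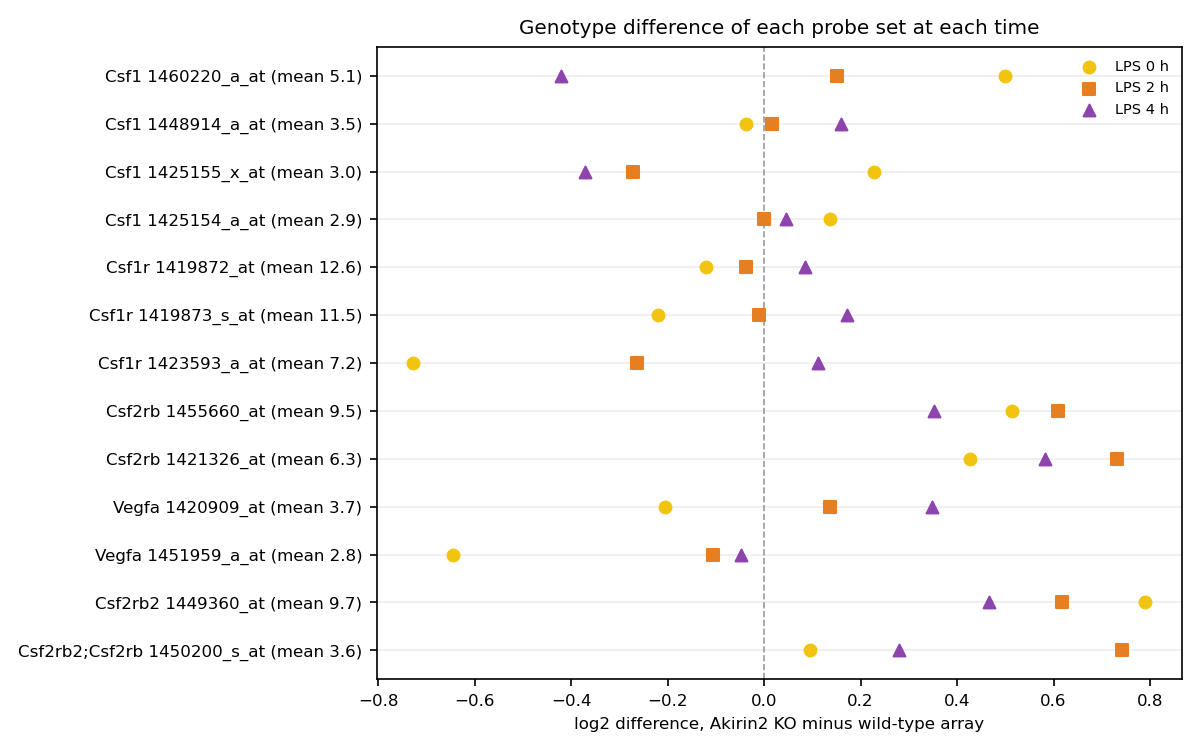
Akirin2 KO minus wild-type difference in log2 level (x axis) at 0 h (yellow circles), 2 h (orange squares) and 4 h (purple triangles) of LPS for each probe set of Csf1, Csf1r, Csf2rb and Vegfa, of Csf2rb2 and of the probe set shared by Csf2rb and Csf2rb2, with its mean level in brackets. All 3 points lie to the right of 0 for both Csf2rb probe sets, Csf2rb2 and the shared probe set. The probe sets of Csf1 and Csf1r and the brighter one of Vegfa scatter to both sides, and the dimmer Vegfa probe set lies to the left.

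Csf3r, the G-CSF receptor, had levels of 4.15, 4.56 and 4.38 in Akirin2 KO and of 4.79, 4.95 and 5.03 in wild-type. Every Akirin2 KO array was below every wild-type array, with differences of -0.63, -0.39 and -0.66 at the 3 times. The genotype effect was -0.56, or 1.47-fold lower (SE 0.13, 95% confidence interval -0.85 to -0.27), with an adjusted p of 0.0709, and it missed the threshold under all 12 settings tried (adjusted p of 0.0528 to 0.167). Among these settings, leaving out the 0 h arrays and leaving out the Akirin2 KO 0 h array gave the same genotype fit. Csf3r is represented by 1 probe set. The neutrophil genes S100a8 and S100a9, which activated macrophages express too, had genotype effects of -0.11 and 0.057 (limma adjusted p of 0.756 and 0.874). Their levels were 7.74 to 8.80 and 6.34 to 6.70 in Akirin2 KO, against 7.61 to 9.06 and 6.09 to 6.65 in wild-type. These ranges pool the 3 times, and S100a8 rose by 1.26 at 4 h of LPS (adjusted p = 0.00116). At 0, 2 and 4 h, Akirin2 KO minus wild-type was 0.13, -0.20 and -0.25 for S100a8. For S100a9 it was 0.042, -0.12 and 0.25. Mmp8, a neutrophil collagenase, had 3.79 to 4.17 in Akirin2 KO and 3.56 to 3.84 in wild-type, with a genotype effect of 0.27 (adjusted p = 0.360). Camp, near the array medians, went the other way, with a genotype effect of -0.27 (adjusted p = 0.358). It was lower in Akirin2 KO by 0.16, 0.46 and 0.19 at 0, 2 and 4 h. The summed level of the 9 neutrophil markers was 8.56 to 9.21 in Akirin2 KO and 8.47 to 9.37 in wild-type, ranges that also pool the 3 times of LPS.

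Across the 9 genes, 0 passed the genotype test in either direction, against 0.891% of all genes higher in Akirin2 KO and 1.06% lower. The arrays of the genotypes did not overlap for 3 of the 9 genes, Csf2ra, Csf2rb and Csf3r, by the probe set that stood for each gene, where 12.3% of all genes showed this. The median genotype effect was 0.076 over the 9 genes and -0.011 over all genes. The 6 levels of each gene were put in order, and the 5 gaps between neighbours were set against its moderated residual SD. For Csf3r 4 gaps exceeded it, for Csf1, Csf2rb, Lif and Inhba 3, for Csf2ra and Vegfa 1, and for Csf1r and Osm 0. For the difference in LPS response, 0 of the 9 genes passed, against 0.00736% of all genes higher and 0.0221% lower.

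Of the 9 genes, 3 (Csf1, Lif and Inhba) spanned at least 1 log2 unit over the 6 arrays, as did 2240 of all genes tested. Among these 2240 genes, the pattern most like that of Csf1 was that of Dyrk2 (Pearson r = 0.981 over 6 arrays), followed by Sbno1 (0.970) and Plagl2 (0.961). The pattern of Lif was nearest to those of Chd1 (0.975), Adm (0.971) and Hspa1a (0.968), and that of Inhba to those of Il1rn (0.978), Znrf1 (0.971) and Cd302 (0.966). Adm, which encodes the vessel-dilating peptide adrenomedullin, had 4.34, 6.42 and 5.19 in Akirin2 KO and 4.49, 7.19 and 6.36 in wild-type. Il1rn, the interleukin-1 receptor antagonist, had 7.87, 9.29 and 9.51 in Akirin2 KO and 7.45, 8.60 and 8.93 in wild-type. These correlations describe 6 arrays chosen from among many genes and carry no test.

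Of 4 colony-stimulating factors and related lineage growth factors tested, Csf1 was the 1 that rose, at both times. Csf2 had levels of 2.85, 3.20 and 3.16 in Akirin2 KO and of 2.97, 4.06 and 3.54 in wild-type, with an LPS effect of 0.72 at 2 h (SE 0.19, adjusted p = 0.0671). Csf3 read 2.92 to 3.12 in Akirin2 KO and 2.97 to 3.22 in wild-type. Of 8 receptors of haematopoietic growth factors tested, 0 passed in any comparison.

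Among 25 genes of colony-stimulating factor signalling and of the myeloid lineage, 6 rose and 3 fell at 2 h, and 8 rose and 5 fell at 4 h. The kinase gene Jak2, which works beneath the GM-CSF receptor, had 7.90, 9.41 and 9.93 in Akirin2 KO and 8.23, 9.92 and 10.31 in wild-type, and rose by 1.60 and 2.06 (adjusted p of 0.000445 and 6.01e-05). Cish, a feedback inhibitor induced by cytokines, rose by 2.06 at 2 h, and Ets2, a transcription factor downstream of Csf1r, rose by 2.55 at 2 h and 2.65 at 4 h. The lineage factors Cebpa and Irf8 fell, with effects at 2 h of -1.79 for Cebpa and -2.15 for Irf8 (adjusted p of 0.000672 and 0.00251). For genotype, 1 of the 25 passed, Pik3r1, a regulatory subunit of phosphoinositide 3-kinase, which rose by 0.77 (adjusted p = 0.0389). That call was made under 8 of 12 settings, and the effect was 0.070 with the mean of its probe sets.

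Among 5 interleukin-6 family ligands tested, Lif and Il6 rose at both times and 0 fell. Il6 had 3.12, 5.39 and 5.41 in Akirin2 KO and 3.20, 6.97 and 7.13 in wild-type, and its LPS effect was 3.02 at 2 h (adjusted p = 0.00151). Among 5 receptors of the family, Il6ra fell by 0.97 at 2 h and by 1.70 at 4 h (adjusted p of 0.00733 and 0.000192), and the others did not pass.

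Among 24 genes of the activin and TGF-beta family, 2 rose and 1 fell at 2 h, and 5 rose and 2 fell at 4 h. Fst, which encodes follistatin, the secreted protein that binds and blocks activin, had 3.53, 4.21 and 5.27 in Akirin2 KO and 3.58, 4.49 and 6.24 in wild-type. It rose by 2.20 at 4 h (SE 0.22, adjusted p = 0.000334), and by 1.40 between 2 and 4 h (adjusted p = 0.0155). Acvr1b, a type I activin receptor, rose by 0.90 at 2 h and by 1.27 at 4 h. For genotype, Fstl1, a secreted relative of follistatin, rose by 1.22 and Tgfb1 fell by 0.66 in Akirin2 KO (adjusted p of 0.0052 and 0.0379). The call for Fstl1 was made under all 12 settings and that for Tgfb1 under 8.

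Among 9 genes of the VEGF family tested, Vegfc, a factor of lymphatic vessels, and the co-receptor Nrp2 rose at both times, and the receptor Flt1 fell at 4 h. Vegfc rose by 0.69 and 0.86, and Nrp2 by 0.89 and 2.10, at 2 and 4 h. The call for Vegfc at 2 h was made under 4 of 9 settings and that for Flt1 at 4 h under 5 of 8. Of 15 hypoxia-linked genes, 3 rose at 2 h, and 3 rose and 3 fell at 4 h. Hif1a, Slc2a1 and Adm were those that rose, by 1.03, 0.72 and 1.37 at 4 h, while Epas1 fell by 1.43, Pdk1 by 0.97 and Ankrd37 by 0.66.

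Of 11 other growth factors, Igf1 rose at 2 h, and Igf1 and Ereg rose and Pdgfa and Pdgfc fell at 4 h. For Igf1 the 2 h call was made under 5 of 9 settings. Ereg (epiregulin), which activates the epidermal growth factor receptor, had 3.92, 4.55 and 5.02 in Akirin2 KO and 3.33, 5.89 and 6.38 in wild-type. At 0 h Akirin2 KO was higher by 0.59. The test of the difference in response treats 2 and 4 h as repeats, and both share the 0 h arrays. Its p-value thus measures how alike the difference was at those times. Ereg was among the 4 genes of all tested that passed it (-1.94, adjusted p = 0.0263). This call was made under 4 of 8 settings and lost with no floor (adjusted p = 0.0637), with the floor at the 75th percentile (0.106), without probe sets open to cross-hybridisation (0.115) and with centred arrays (0.0644). Pdgfa, a growth factor of connective tissue cells, had 9.37, 9.51 and 8.92 in Akirin2 KO and 8.82, 8.60 and 7.82 in wild-type, and was higher in Akirin2 KO by 0.86 (adjusted p = 0.0251, a call made under 10 of 12 settings).

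**Figure D4:**
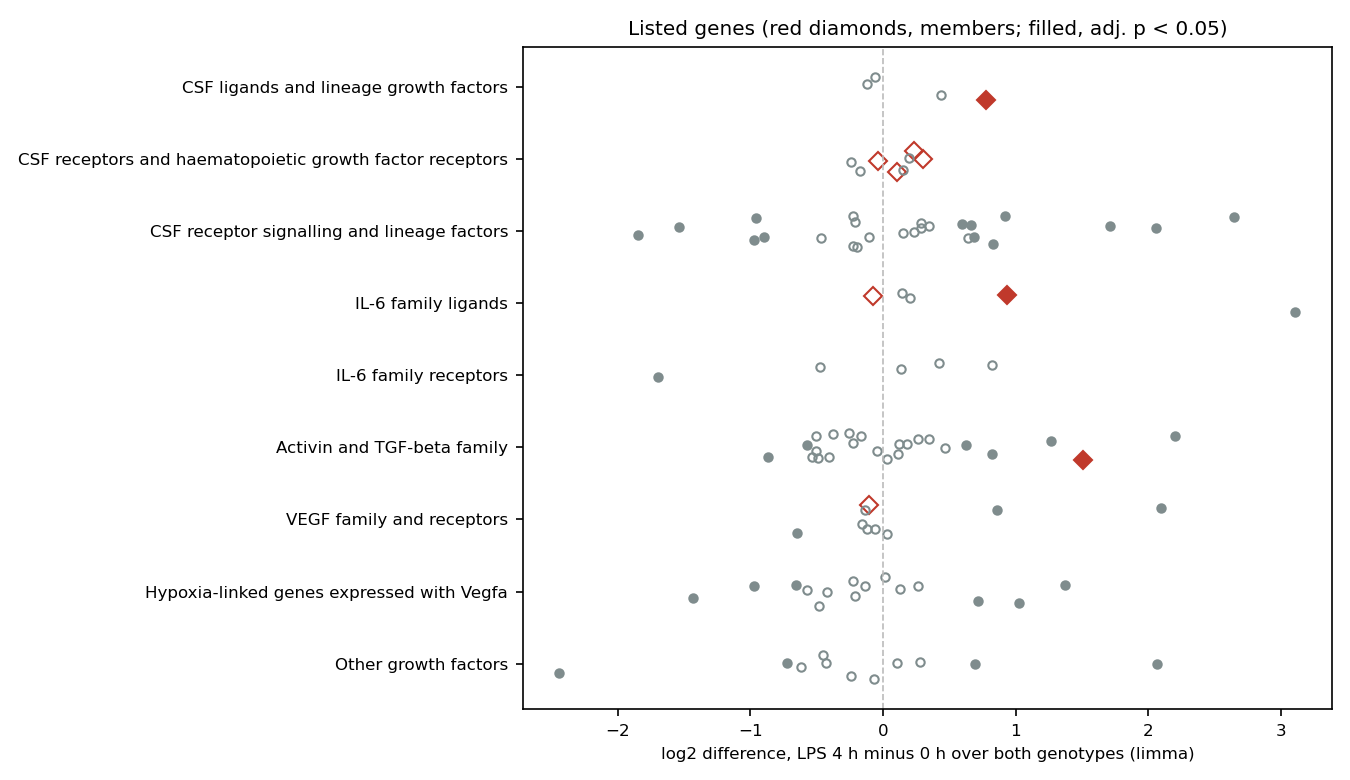
Effect of LPS at 4 h over both genotypes (limma log2 difference, x axis) for the tested genes of 9 lists around these growth factors and receptors, with red diamonds for genes of the 9 and grey circles for other genes, filled where the adjusted p was under 0.05. The filled diamonds are Csf1, Lif and Inhba, and the receptors of colony-stimulating factors sit near 0 with open symbols.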

How the data were processed

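Expression was measured on 6 Affymetrix arrays, 1 for each of 2 genotypes at 3 times of LPS. Total RNA was extracted with Trizol and biotin-labelled cRNA was made with the NuGEN Ovation system, per the labels' protocols. The deposited log2 values were made by the authors with RMA, per the submitters' processing notes, whose version is not given in the sources used here. RMA forces all arrays to one distribution of values, so an overall shift between them is removed, before probes are combined per probe set. The values ran from 2.26 to 14.2. Precision is limited by the number of arrays.

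Of 45101 probe sets, the platform annotation gave 34958 1 symbol, 932 several and 9211 none. All 9 genes matched RefSeq by gene number. The brightest probe set stood for each gene. The floor was each array's median.

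Tests used limma 3.58.1 in R 4.3.3 (lmFit, eBayes, Benjamini-Hochberg over 13587 genes at 0.05), tested on simulated data. The model of LPS time plus genotype left 2 residual degrees of freedom (prior 6.35), and a further term for genotype in stimulated cells left 1 (prior 11.5). Nothing in the labels says that samples are separate animals, so p-values measure the spread between these arrays only. Genotype p-values measure constancy over the 3 times. Those for the difference in response measure how alike it was at 2 and 4 h, which share the 0 h arrays. Single arrays were compared by a 2-fold rule without a test.

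The 9 genes, the gene lists, the motifs and the tests were chosen with earlier results of these data known. Named genes were the 9, Akirin2, the close copy Csf2rb2, the 3 most alike genes of each that varied, and members of the lists, in most cases those past the threshold.

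Alternatives were a gene's mean over its probe sets, dropping the floor, raising it to the 75th percentile, dropping _s_at and _x_at probe sets (open to cross-hybridisation), a further quantile normalization, centring of arrays, eBayes with trend and robust options, leaving out each time, the values within each genotype alone (with no test), and a size rule of 1.5-fold. Leaving out the Akirin2 KO 0 h array was chosen after seeing the data.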

Additional observations from a re-analysis of the deposited data

Results flagged for a closer look

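After LPS, Vegfa stood on opposite sides of its 0 h level in the genotypes, above it on both stimulated Akirin2 KO arrays and below it on both stimulated wild-type arrays. The LPS response of Akirin2 KO exceeded that of wild-type by 0.34 at 2 h and by 0.55 at 4 h. The limma test of the difference in response gave 0.45 (adjusted p = 0.488) and did not pass the threshold. Both values share the 0 h arrays, which stood 0.21 apart the other way, with Akirin2 KO lower. All levels lay below the 75th percentile of their arrays, the spikes of the Akirin2 KO 0 h array read 0.69 above those of the wild-type 0 h array, and the part of either in the Vegfa values was not tested.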

How the results depend on the processing

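Of 415 tested effects on the 9 genes and Csf2rb2 under other settings, 373 kept their direction and their side of the threshold, 11 lost it, 10 gained it and 21 changed sign. Those that changed sign were effects that had not passed the test. The number of genes called at 4 h of LPS was 1 of the 9 with no floor and 1 with centred arrays, against 3. With the mean of all probe sets and with trend and robust options Csf2rb was called there too. It was 1 for genotype with trend and robust options (Csf2rb), and 1 without the 0 h arrays or without the Akirin2 KO 0 h array (Lif), against 0. Between 2 and 4 h it was 1 without the Akirin2 KO 0 h array, against 0.

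By the 2-fold rule with the mean of all probe sets, 0 of the 9 genes passed in Akirin2 KO at 2 and at 4 h, 1 in wild-type at 2 h and 0 at 4 h, and 0 between genotypes at 2 h. With 1.5-fold, 1, 3 and 2 genes differed between genotypes at 0, 2 and 4 h. All genes past the size rule numbered 129 to 1151 over the 7 pairs of arrays, 74 to 735 with the mean of all probe sets and 789 to 2917 with 1.5-fold.

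Over all genes, trend and robust options called 1669 at 2 h (against 931), 875 between 2 and 4 h (against 363), 883 for genotype (against 265) and 256 for the difference in response (against 4). Without the Akirin2 KO 0 h array, 1548 were called at 2 h, 924 between 2 and 4 h and 664 for genotype, the last also without the 0 h arrays. Genotype called 176 with the mean of probe sets, 142 with centred arrays and 158 without the 2 h arrays. The difference in response called 0 with no floor, with a floor at the 75th percentile, without probe sets that may cross-hybridise and with centred arrays, 1 with the mean of probe sets and 62 after a further quantile normalization. The causes were not tested.

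The sign changed as follows. For LPS at 2 h, Csf1r was -0.025 and Osm -0.034 without the Akirin2 KO 0 h array, and Vegfa was 0.042 after quantile normalization and 0.043 with centred arrays. For LPS at 4 h, Csf2ra was 0.016 with the mean of probe sets. For genotype, Csf1 was -0.14, Csf1r 0.024 and Osm 0.064 without the 0 h arrays and likewise without the Akirin2 KO 0 h array. Csf1r was 0.032 after quantile normalization, Osm 0.0040 with centred arrays, and Vegfa -0.087 with the mean of probe sets and -0.035 without the 4 h arrays. For the difference in response, centred arrays gave -0.069 for Csf1r, -0.16 for Csf2ra and -0.10 for Csf3r, and the mean of probe sets gave -0.027 for Csf2ra, 0.099 for Csf2rb and -0.058 for Inhba. Centring moved the median difference in response at 4 h over all genes to -0.15, against 0.12.

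With 1 array per condition, a difference between preparations cannot be told apart from one between genotypes or times. Vegfa was not tested with the floor at the 75th percentile. Levels near the array median, as for Lif and Inhba at 0 h, understate fold changes. The labels carry no replicate numbers, so no replicate block was added to the model, which already sets each Akirin2 KO array against the wild-type array of its time. Of the other listed genes called for LPS, 12 of 23 at 2 h and 14 of 43 at 4 h lost the call in at least 1 setting, as did 6 of 9 for genotype, Akirin2 among those counted.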
